A study of Mus musculus with 4 samples.

Results

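Nuclei with transcripts of early meiotic prophase were selected from single-nucleus RNA libraries of adult mouse testis by the presence of 8 genes. A droplet barcode, read as 1 nucleus, was gated when it held at least 1000 UMIs (unique molecular identifiers, each standing for 1 captured RNA molecule), 500 to 5000 detected genes, and at least 1 UMI in 3 or more of Meiob, Dmc1, Prdm9, Rad51ap2, Tex11, Hormad1, Tex15 and Ugt8a, with Meiob, Dmc1 or Prdm9 among them. This gate found 1482 of the 36152 barcodes within the limits on UMIs and genes, or 4.10%. The 4 libraries came from whole testes of male mice aged 8 weeks, 2 of them labelled WT and 2 labelled Dhx37-/-. In the Dhx37-/- mice both alleles of Dhx37, an RNA helicase of small ribosomal subunit assembly, carry loxP sites and are recombined by Cre under the Amh promoter, which is active in Sertoli cells. Germ cells are therefore not the target of the deletion, and the gated nuclei sit in a testis whose Sertoli cells are. The floxed line was made on a C57BL/6 background, and the number of mice per library was not given in the sources used here. Library values are given below in the order WT replicate 1, WT replicate 2, Dhx37-/- replicate 1 and Dhx37-/- replicate 2.

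Male germ cells enter meiosis when retinoic acid switches on Stra8 and its partner Meiosin in late spermatogonia. The cells then copy their DNA, and in leptotene and zygotene the chromosomes are organised along a protein axis, the SPO11 nuclease cuts the DNA at sites marked by PRDM9, and recombinases such as DMC1 carry the cut ends into the homologous chromosome. The synaptonemal complex joins the homologs as this proceeds, and in pachytene, when pairing is complete, the X and Y chromosomes are silenced and genes of the later spermatocyte are switched on. Meiob encodes a single-stranded DNA binding protein of meiotic recombination, Hormad1 an axis protein, Tex11 a crossover factor, Tex15 a protein needed for recombination and transposon silencing, Rad51ap2 a protein expressed in meiotic cells, and Ugt8a an enzyme of glycolipid synthesis.

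The libraries held 51797891 to 75611263 UMIs over all barcodes, and the gated nuclei contributed 909754, 780016, 2403201 and 3734251 UMIs. Mitochondrial UMIs had a median share of 0.119 to 0.279% per library among the gated nuclei, with a highest value of 3.97%. WT replicate 2 and Dhx37-/- replicate 2 shared 1 gated barcode sequence, and no other pair of libraries shared any. Dhx37 itself was measured at 17.6, 19.2, 19.1 and 15.3 CPM (UMIs of a gene scaled to a total of 1000000 UMIs in the nuclei described), from 16, 15, 46 and 57 UMIs. The libraries overlap in Dhx37. Reads of this assay come from the 3′ end of transcripts whereas the floxed exon is near the 5′ end, so the values check neither the labels nor the deletion.

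Gated nuclei made up 2.17% of the barcodes within the limits in WT replicate 1 (95% Wilson interval 1.90 to 2.47%), 2.05% in WT replicate 2 (1.76 to 2.38%), 5.02% in Dhx37-/- replicate 1 (4.57 to 5.50%) and 6.90% in Dhx37-/- replicate 2 (6.41 to 7.42%). These are 211 of 9742, 165 of 8057, 427 of 8509 and 679 of 9844 barcodes. The 2 genotypes did not overlap, and the mean share was 5.96% ± 1.33 (SD, n = 2) in Dhx37-/- and 2.11% ± 0.0834 (SD, n = 2) in WT, 2.83-fold higher. The exact two-sided permutation test gave p = 0.333, the smallest value that 2 against 2 libraries can give. The intervals cover counting error only, and a share is relative: more early meiotic nuclei and fewer nuclei of other kinds cannot be told apart in it.

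Depth moved with the share. The median gated nucleus held 3721, 4416, 5207 and 5015 UMIs and the median nucleus that was not gated 3325, 3703.5, 3754 and 4147, and a deeper nucleus passes a gate of single UMIs more easily. With every barcode thinned to 1000 UMIs the gate kept 31, 12, 43 and 96 nuclei, or 0.318, 0.149, 0.505 and 0.975%. The order of the genotypes was kept at this depth, but on few nuclei and with no interval computed. The backgrounds given next were taken at full depth, and the part of depth in the share was not tested further. Clusters of somatic marker genes, which should lack these transcripts, gave the background: 7 of 788, 0 of 296, 12 of 963 and 9 of 858 of their barcodes passed the gate, together 0.964% (Wilson interval 0.668 to 1.39%) at median depths of 3285, 3336.5, 4359 and 6015.5 UMIs. The 0 of 296 allows a share of up to 1.01%. The share in every library lay above the background of these clusters. It did not clear a second background. Of the barcodes with at least 1 UMI in 3 or more genes of a somatic list, 31 of 1314, 11 of 735, 190 of 2635 and 237 of 2605 passed the gate. This was more than the overall share in WT replicate 1 (2.36%) and in each Dhx37-/- library (7.21 and 9.10%) and less in WT replicate 2, at median depths of 3565, 3952, 4245 and 4884 UMIs. With those barcodes left out the share was 2.14, 2.10, 4.03 and 6.11%. Scrublet called 15.6, 17.6, 13.6 and 11.6% of the gated nuclei as doublets, against 3.55, 3.86, 4.36 and 3.86% of the others. The part of doublets in the share was not tested beyond leaving them out.

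**Figure D1:**
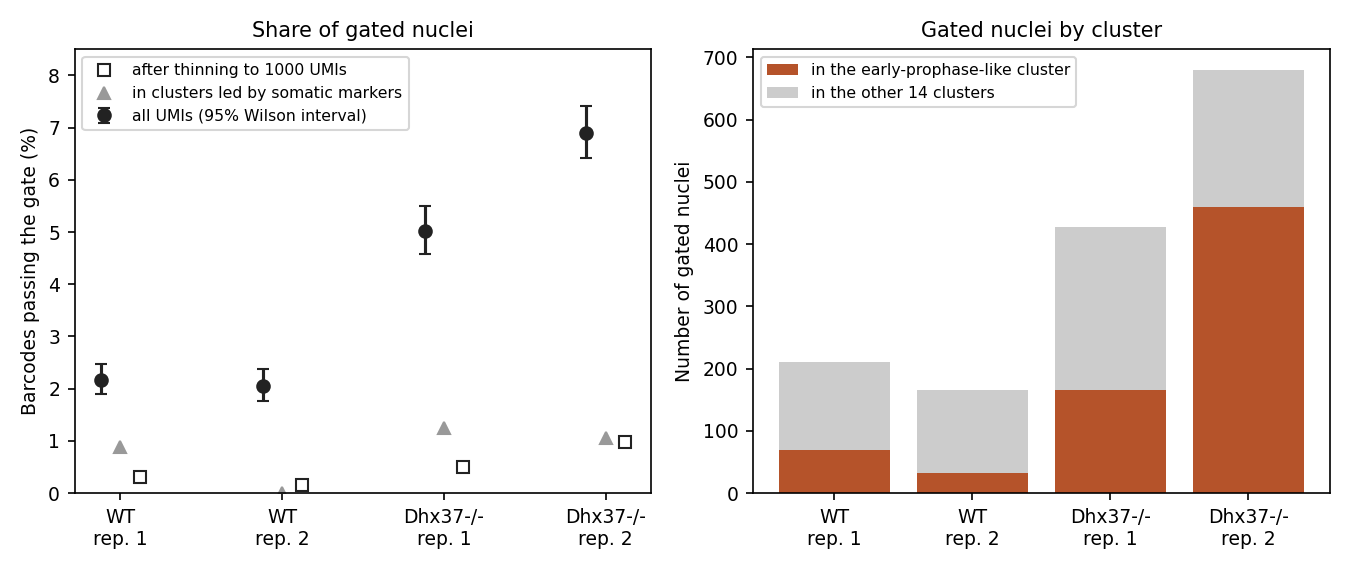
Left, barcodes passing the early meiotic gate in percent for each of the 4 libraries, as black points with 95% Wilson intervals, beside the share after thinning to 1000 UMIs (squares) and the share in clusters led by somatic markers (triangles). Right, the number of gated nuclei in the early-prophase-like cluster and in the other 14 clusters; the Dhx37-/- shares of 5.02 and 6.90% sit above the WT shares of 2.17 and 2.05%, and the cluster holds 70, 32, 166 and 459 of the gated nuclei.

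The label held for only some of the gated nuclei. Among barcodes with 2 gate genes, just outside the threshold, 8.18% of 2433 fell into the early-prophase-like cluster described below, against 30.4% of the 936 nuclei with 3 gate genes, just inside it. Dhx37-/- replicate 2 weighed most in these shares, which were 4.29 and 18.6% without it. The share over all libraries was 72.5% of 320 nuclei with 4 genes, 90.4% of 135 with 5 and 96.7% of 91 with 6 to 8. Genes outside the gate followed the same order. Synaptonemal complex, axis and cohesin genes summed to 1568 CPM in nuclei with 2 gate genes and to 2365, 3546, 4555 and 5503 CPM in those with 3, 4, 5 and 6 to 8. Genes of double-strand break formation went from 644 to 1066, 1953, 2938 and 3699 CPM, and genes of meiotic entry from 718 to 1181, 1830, 2211 and 2296 CPM. Genes of pachytene onset did not follow, at 3402, 3665, 3244, 3150 and 3084 CPM, and round spermatid genes went the other way, from 1588 to 1469, 1026, 624 and 711 CPM. These values pool libraries whose mix changes with the number of gate genes. From 2 to 5 gate genes, pachytene onset genes went from 2796 to 1742 and from 3440 to 2012 CPM in the WT libraries. In the Dhx37-/- libraries they went from 3713 to 3738 and from 3500 to 3225 CPM. A nucleus with 3 gate genes was most often positive for Dmc1, Hormad1 and Tex15, the set found in 34.6, 31.5, 30.7 and 26.4% of such nuclei. These values describe what the gate selected and carry no test.

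**Figure D2:**
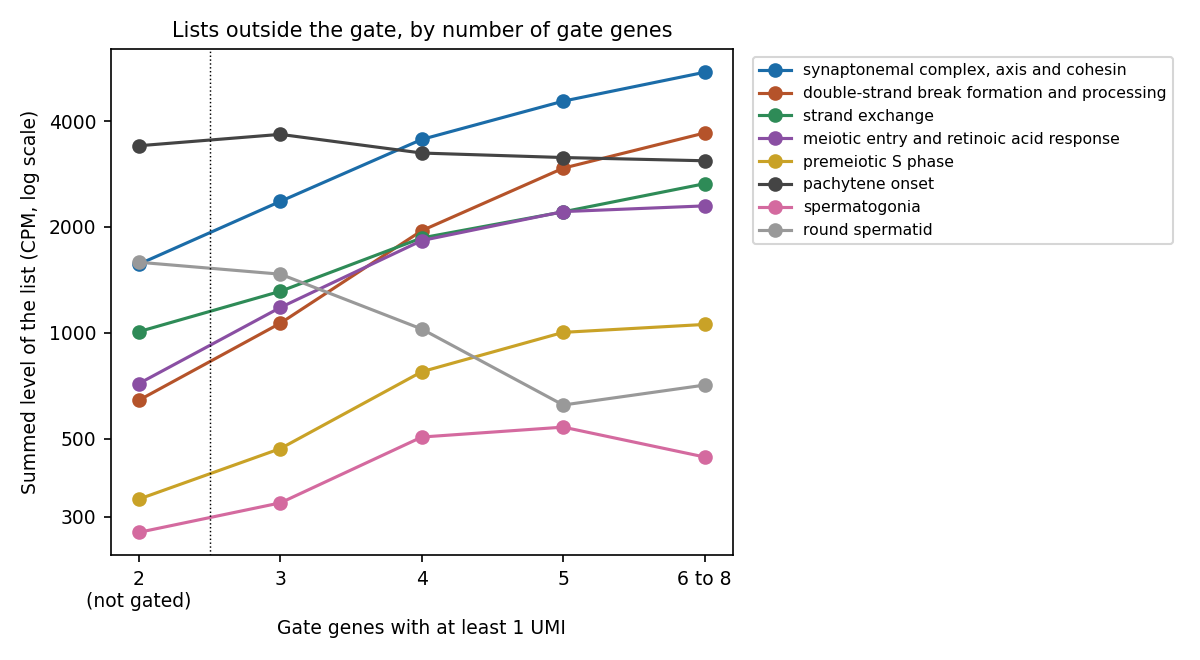
Summed level of gene lists outside the gate, in CPM on a log axis, against the number of gate genes detected in a nucleus, with the 4 libraries together; the dotted line is the threshold of the gate. Axis, break, strand exchange, entry and S phase lists climb with the number of gate genes (break genes from 644 CPM at 2 genes to 3699 CPM at 6 to 8), whereas pachytene onset and round spermatid genes do not. The strand exchange list includes 4930447C04Rik, a synaptonemal complex gene. The mix of libraries differs between the numbers of gate genes.

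Clustering without the 8 gate genes gave 15 clusters, and 727 gated nuclei, 49.1%, lay in 1 of them. In that cluster 53.8% of the 1352 barcodes were gated, and at least 1.5-fold higher levels than elsewhere were found for 12 of 17 axis genes, 15 of 17 break genes and 16 of 22 strand exchange genes, from which it is called the early-prophase-like cluster. Its leading genes were 4930447C04Rik, Neto2, Auts2, Lin28b, Sdk1, Stox1, Mbnl3, Cpeb1, AY036118 and Ranbp17. The first encodes the synaptonemal complex protein SIX6OS1, though it was counted here in the strand exchange list. Raised and leading genes were taken on UMIs pooled over the libraries, and Dhx37-/- replicate 2 gave 826 of the 1352 barcodes. In its barcodes that were not gated, pachytene onset genes summed to 1950, 2132, 4331 and 4007 CPM. All barcodes outside the gate gave 2742, 3249, 3616 and 3274 CPM. The X chromosome share of the former, given below, was lower in both Dhx37-/- libraries. The name rests on the axis, break and strand exchange lists and may not hold for every barcode. The share of gated nuclei inside the cluster was 33.2, 19.4, 38.9 and 67.6%, from 70, 32, 166 and 459 nuclei, so the 4 libraries did not put the same mixture through the gate. The nearest other source was a cluster led by Epha7 and Lef1, with 170 gated of 2105 barcodes and 14 of 18 pachytene onset genes raised. A further 189 lay in a cluster led by Cadm2 and Spef2, of which 3.95% was gated, and 84 in a cluster where 93.2% of barcodes were doublet calls. Among the genes that stood highest in all gated nuclei over the rest, ranked by the smallest ratio of the 4 libraries after adding 10 CPM to both levels, were Lin28b (ratio 5.31), Neto2 (5.05), Stra8 (4.02) and the chromatin remodeler Hells (4.01). The added 10 CPM lowers these ratios, and Stra8 itself read 59.4, 35.9, 41.6 and 55.7 CPM in gated nuclei against 1.41 to 3.98 CPM in the others. Sizes of clusters between genotypes are given only as a description, since genes that define the cluster also differed between them.

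The gate genes, which chose the nuclei and are therefore described without a test, did not vary together. Meiob was at 71.4, 94.9, 142 and 190 CPM in the gated nuclei and Hormad1 at 208, 265, 331 and 392 CPM. Rad51ap2 was at 6.60, 11.5, 30.4 and 27.0 CPM. All 3 were higher in each Dhx37-/- library than in either WT library. Prdm9, at 60.5, 79.5, 48.3 and 57.8 CPM, lay lower in both Dhx37-/- libraries, and the genotypes overlapped for Dmc1 (269, 181, 214 and 244 CPM), Tex15 (610, 463, 497 and 639 CPM), Tex11 (138, 76.9, 86.6 and 164 CPM) and Ugt8a (61.6, 32.1, 33.3 and 60.3 CPM).

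The pattern was sharper inside the early-prophase-like cluster. Meiob was at 31.8, 46.5, 269 and 249 CPM among its gated nuclei, from 7, 5, 220 and 588 UMIs. Outside the cluster the gated nuclei held 84.1, 103, 76.9 and 87.7 CPM. Those were 58, 69, 122 and 120 UMIs in 53, 58, 99 and 102 nuclei with Meiob. In nuclei that were not gated Meiob was at 5.98, 6.85, 9.95 and 13.2 CPM. Meiob is a gate gene, so the gate sets its level in gated nuclei in part. Gated nuclei inside and outside the cluster therefore cannot show where Meiob is expressed. Between genotypes, barcodes of the cluster that did not pass the gate differed in the same direction as its gated nuclei. Their Meiob was at 6.42, 0, 169 and 109 CPM from 2, 0, 88 and 215 UMIs. These barcodes failed the gate, so the gate sets their Meiob level in part as well. At 1000 UMIs per nucleus, 2.29, 2.56, 19.8 and 14.4% of all the cluster's barcodes, gated or not, had a Meiob UMI. These were 4, 2, 54 and 119 barcodes, so the WT values rest on very few. Tex15 ran the other way in the gated nuclei of the cluster, at 1249, 1347, 848 and 801 CPM, as did Tex11 at 441, 372, 193 and 247 CPM and Ugt8a at 236, 204, 82.0 and 91.3 CPM.

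**Figure D3:**
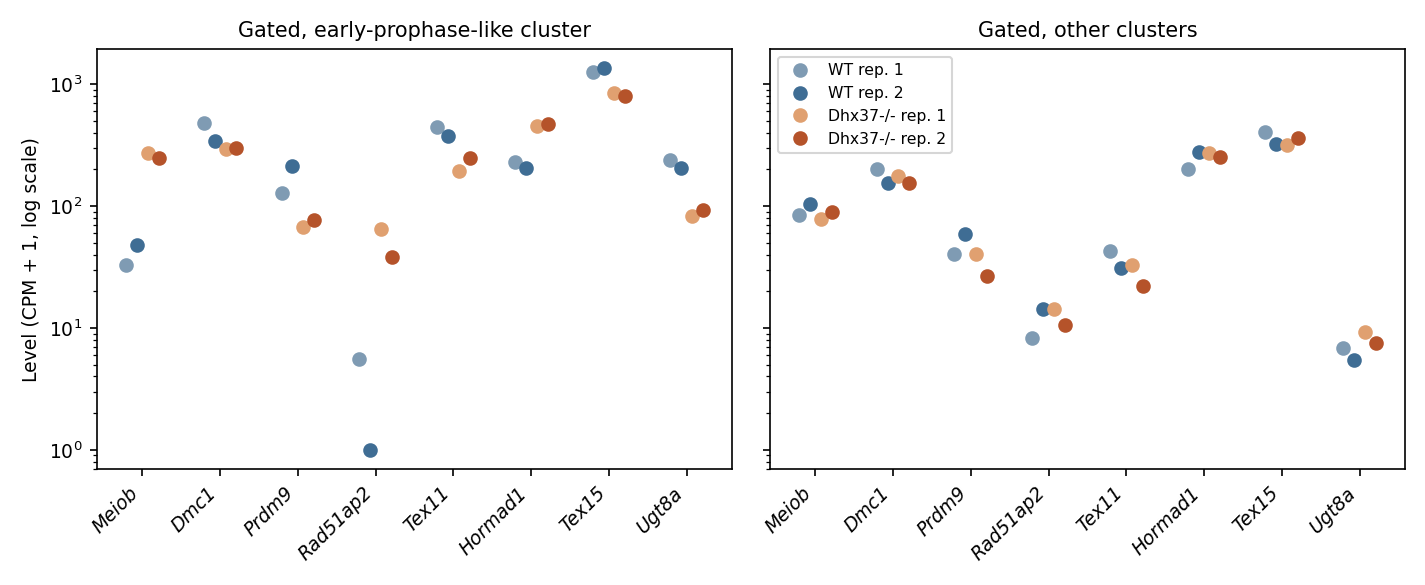
Level of the 8 gate genes (CPM + 1, log axis) in gated nuclei of each library, as 1 point per library, inside the early-prophase-like cluster (left) and elsewhere (right). Inside the cluster WT Meiob reads 31.8 and 46.5 CPM against 269 and 249 CPM in Dhx37-/-, and outside it 76.9 to 103 CPM in all 4 libraries. Meiob is a gate gene, so the gate sets these levels in part.

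Genotypes were then compared gene by gene over all gated nuclei, with UMIs summed per library and edgeR's quasi-likelihood test. Of 16296 genes tested, 4 passed an adjusted p of 0.05 (0.0245%), 2 higher and 2 lower in Dhx37-/- (0.0123% each way), and 2887 had an unadjusted p under 0.05. DESeq2 called 104 of 34878 genes.

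Stox1, which encodes a winged-helix DNA binding protein, held 10, 10, 185 and 641 UMIs, or 11.0, 12.8, 77.0 and 172 CPM. Both Dhx37-/- libraries were above both WT libraries, by a log2 fold change of 3.37 ± 0.47 (SE, edgeR adjusted p = 0.0214). In nuclei that were not gated it was at 9.08, 9.02, 22.3 and 39.8 CPM. Over the pooled libraries it is a leading gene of the early-prophase-like cluster, in whose gated nuclei it held 2 and 0 UMIs in the WT libraries. The transcript Gm10505, on chromosome 17 and annotated with no protein, held 12, 16, 201 and 663 UMIs, or 13.2, 20.5, 83.6 and 178 CPM. It rose by 2.95 ± 0.44 on the log2 scale (edgeR adjusted p = 0.0271), again without overlap between genotypes.

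The 2 lower genes showed the opposite order. Gm13169, a processed pseudogene on chromosome 4, held 30, 43, 9 and 6 UMIs, or 33.0, 55.1, 3.75 and 1.61 CPM, a log2 fold change of -4.11 ± 0.56 (edgeR adjusted p = 0.0214). Reads of a processed pseudogene can be shared with near-identical copies, so its count is uncertain. Of its UMIs in the gated nuclei, 30, 41, 6 and 6 lay in the early-prophase-like cluster. Gm10999, on chromosome 8 opposite Ccdc7b, held 21, 43, 5 and 11 UMIs, or 23.1, 55.1, 2.08 and 2.95 CPM, a log2 fold change of -3.90 ± 0.58 (edgeR adjusted p = 0.0271). It was lower in nuclei outside the gate too, at 28.9, 64.4, 8.75 and 9.77 CPM. Both Gm13169 and Gm10999 passed the filter on counts only through the WT libraries, so these calls rest on the group where the genes are high. In gated nuclei with at least 4 gate genes edgeR called 0 of 10066 genes (1243 at an unadjusted p under 0.05), with Stox1 at a log2 fold change of 4.97 (adjusted p = 0.0960).

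**Figure D4:**
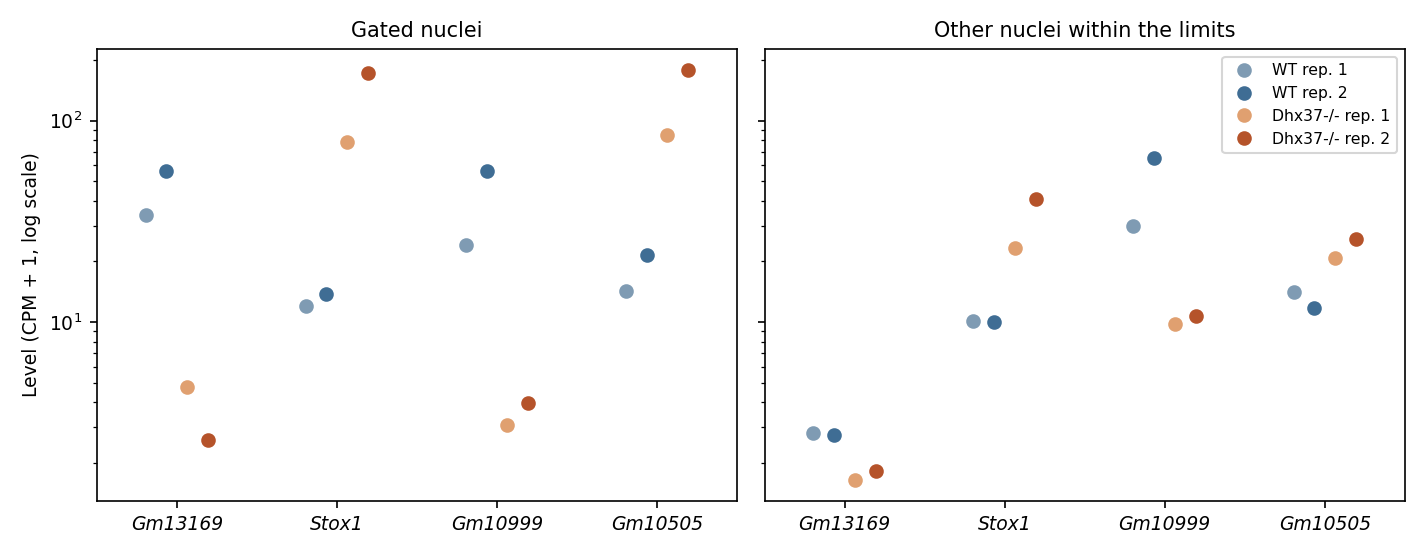
Level (CPM + 1, log axis) of Stox1, Gm10505, Gm13169 and Gm10999, the 4 genes that passed edgeR's test over all gated nuclei, as 1 point per library in gated nuclei (left) and in the other nuclei (right). In gated nuclei Stox1 (77.0 and 172 CPM) and Gm10505 (83.6 and 178 CPM) lie higher in both Dhx37-/- libraries than in the WT libraries, and Gm13169 and Gm10999 lie lower.

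No gene of the meiotic or somatic lists passed that test. Of 322 list members tested, edgeR called 0, with 61 higher and 10 lower (18.9 and 3.11%) at an unadjusted p under 0.05, and DESeq2 called 4 of 356. Over all genes 1411 were higher and 1476 lower at that p (8.66 and 9.06%). Estimates leaned upward in most lists, beside a median log2 fold change over all genes of 0.02. Of the axis, cohesin and synaptonemal complex genes 15 of 16 had a higher estimate in Dhx37-/-, with a median of 0.69. Sycp2, a synaptonemal complex lateral element gene, read 326, 244, 502 and 804 CPM, with a log2 fold change of 1.16 ± 0.33 (edgeR adjusted p = 0.145). Rec8, the meiotic cohesin kleisin, was the exception at 63.8, 76.9, 33.7 and 31.1 CPM and a log2 fold change of -1.15 ± 0.33 (edgeR adjusted p = 0.150).

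Strand exchange genes had higher estimates for 17 of 21 (median 0.45), crossover genes for 17 of 21 (median 0.46) and double-strand break genes for 15 of 17 (median 0.25). The strand exchange list includes the synaptonemal complex gene 4930447C04Rik. Hfm1, a DNA helicase of crossover formation, read 76.9, 51.3, 117 and 185 CPM, a log2 fold change of 1.20 ± 0.34 (edgeR adjusted p = 0.150). Atr, a checkpoint kinase of the sex chromosomes at pachytene, read 246, 258, 376 and 424 CPM in a list of silencing genes with 13 of 17 higher estimates (median 0.61). Telomere attachment genes stood at 8 of 9 (median 0.43), premeiotic S phase genes at 13 of 17 (median 0.36), piRNA genes at 13 of 18 (median 0.36), pachytene onset genes at 14 of 18 (median 0.32) and genes of meiotic entry at 12 of 18 (median 0.17). Estimates for p53 and apoptosis genes were split, 11 of 23 higher (median -0.05), small subunit processome genes stood at 30 of 35 (median 0.27), spermatogonial genes at 10 of 14 (median 0.12) and round spermatid genes at 3 of 14 (median -0.26).

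Genes of other cell types were measured in the same nuclei, and none on the 5 lists passed the test. All 12 of 12 Leydig genes had a higher estimate (median 1.08) and 13 of 17 Sertoli genes did (median 0.58). The counts were lower for macrophage (4 of 10, median -0.30), endothelial (0 of 5, median -0.67) and fibroblast and myoid genes (1 of 6, median -0.61). The Leydig list summed to 159, 110, 355 and 288 CPM in gated nuclei, with none of its 12 genes at 0 in any library, and to 658, 345, 1234 and 1141 CPM in the other nuclei. Insl3, a Leydig hormone, read 5.50, 10.3, 59.9 and 35.1 CPM. In nearly empty barcodes of at most 100 UMIs, which sample free RNA, the Leydig list summed to 627, 456, 1160 and 1100 CPM and the Sertoli list to 725, 578, 1426 and 1202 CPM, higher in both Dhx37-/- libraries as well. Late spermatid genes summed to 7135, 7233, 11883 and 8759 CPM in gated nuclei and to 23156, 34153, 53000 and 40215 CPM in the nearly empty barcodes. The part of free RNA in the gene comparison was not tested.

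Within the early-prophase-like cluster the gated nuclei of the genotypes differed in many more genes. This comparison was added after the data were seen. edgeR called 802 of 9714 genes (8.26%), 460 higher and 342 lower in Dhx37-/- (4.74 and 3.52%), on 70, 32, 166 and 459 nuclei. The 802 include 7 gate genes, whose UMIs chose the nuclei and which carry no test, and without the gate genes 795 of 9706 were called, 457 higher and 338 lower. The balance was uneven in other fits: DESeq2 called 189 higher and 50 lower, edgeR without Dhx37-/- replicate 1 gave 213 and 28, and without Dhx37-/- replicate 2 it gave 160 and 28. Without WT replicate 1 the counts were 423 higher and 199 lower, and without WT replicate 2 they were 662 and 404. Of the 802, 3 had also been called over all gated nuclei. The number depended on which gated nuclei were taken. When the gated nuclei of the Epha7 and Lef1 cluster were added, 3 of 11963 genes were called (0.0251%). Zfp820 and Lrmda were higher, at log2 fold changes of 3.66 and 3.28 (0.0167%), and Gm13169 was lower, at -5.31 (0.00836%). Gm13169 again passed the filter on counts only through the WT libraries. Of 252 list members tested 27 were called (10.7%), near the 8.26% of all genes, so the genes named in what follows describe members and set no list apart. Of these 27, 26 were tested in the joined clusters, where 26 had the same sign and none was called, and 23 of 26 had the same sign over all gated nuclei. The joined clusters hold 91, 69, 237 and 500 gated nuclei, those of the early-prophase-like cluster included, and the 27 were chosen by their calls there. Like signs are therefore no separate support.

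Stra8 and Meiosin, which start the meiotic program, fell in the cluster. Stra8 read 245, 260, 120 and 86.2 CPM, a log2 fold change of -1.35 ± 0.26 (edgeR adjusted p = 0.00275). Meiosin read 159, 111, 42.8 and 54.5 CPM, a log2 fold change of -1.51 ± 0.32 (edgeR adjusted p = 0.00627). Over all gated nuclei their log2 fold changes were only -0.01 and -0.14, and in the joined clusters -0.92 and -1.09. Of the other 13 tested genes of this list, 8 had a lower estimate and none of those passed the test, the nearest being the receptor gene Kit (log2 fold change -1.06, edgeR adjusted p = 0.0512). Zfp541 and Kctd19, which encode partners in a complex of the pachytene program, rose, Zfp541 from 54.5 and 83.6 to 234 and 193 CPM (log2 fold change 1.69 ± 0.32, edgeR adjusted p = 0.00295). In the list 5 of 15 tested genes had a higher estimate, with a median of -0.39 beside -0.01 for all genes tested.

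Genes of spermatogonia were lower in estimate for 7 of 9 tested (median -0.83). Dmrt1, a transcription factor that holds spermatogonia back from meiosis, read 322, 418, 121 and 169 CPM (log2 fold change -1.29, edgeR adjusted p = 0.00228), and Lin28a, an RNA binding protein of progenitors, fell too (log2 fold change -1.77, edgeR adjusted p = 0.0168). In gated nuclei with at least 4 gate genes the direction of Lin28a turned, to a log2 fold change of 0.27. Dmrtb1, which acts at the switch from mitosis to meiosis, rose (log2 fold change 1.39, edgeR adjusted p = 0.0281). Premeiotic S phase genes had a higher estimate for 5 of 15 (median -0.30) and none passed the test.

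Axis and cohesin genes split. Rec8 read 63.6, 92.9, 19.6 and 17.8 CPM, a log2 fold change of -2.02 ± 0.45 (edgeR adjusted p = 0.00810), and Sycp3, a main component of the axis, read 132, 204, 455 and 303 CPM, a log2 fold change of 1.22 ± 0.29 (edgeR adjusted p = 0.0130). Among break genes 13 of 17 had a lower estimate (median -0.51). Atm, the kinase that responds to the breaks, read 395, 325, 160 and 179 CPM (log2 fold change -1.12 ± 0.22, edgeR adjusted p = 0.00414), and Hells fell as well. Spo11, the nuclease that makes the breaks, stood apart at 13.6, 9.29, 63.6 and 74.0 CPM and rose by 2.49 ± 0.57 on the log2 scale (edgeR adjusted p = 0.0110), from 3 and 1 UMIs in the WT libraries. In strand exchange Mcmdc2 rose (log2 fold change 2.18), and in crossover formation 1700102P08Rik, which encodes SPO16, read 13.6, 27.9, 131 and 113 CPM (log2 fold change 2.68 ± 0.47, edgeR adjusted p = 0.00148), with Cntd1 also higher (log2 fold change 1.71). The WT level of 1700102P08Rik also rested on few UMIs, and Spo11 passed the filter on counts only through the Dhx37-/- libraries. The rises of Spo11, Mcmdc2, 1700102P08Rik and Cntd1 were smaller in gated nuclei with at least 4 gate genes. There Spo11 read 9.48, 86.1, 56.7 and 59.4 CPM on edgeR's normalised totals, unlike the CPM above, with the genotypes overlapping (log2 fold change 0.46). In them 1700102P08Rik and Cntd1 had log2 fold changes of 0.61 and 0.31. Falls were smaller there too, at -0.60 for Stra8, -0.83 for Meiosin, -0.72 for Dmrt1, -0.60 for Atm and -1.42 for Rec8. Of 26 called list members tested there, 25 kept their sign. Most of these nuclei also lie in the cluster whose calls chose the members, so this is no separate support.

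Genes of pachytene onset had a higher estimate for 12 of 13 tested, with 4 called and a median of 0.94. Piwil1, a pachytene piRNA binding protein, read 77.2, 46.5, 173 and 183 CPM (log2 fold change 1.40 ± 0.32, edgeR adjusted p = 0.0105). Ldhc, the germ cell lactate dehydrogenase, read 631, 827, 1665 and 1411 CPM (log2 fold change 1.09, edgeR adjusted p = 0.00425), and Hspa2 and Tcfl5 were the other 2. In the joined clusters the list's median was 0.23, with 12 of 18 higher. Of piRNA genes 16 of 17 had a higher estimate (median 0.61) and 3 passed, among them Piwil2, which read 136, 177, 328 and 405 CPM (log2 fold change 1.27, edgeR adjusted p = 0.00521), Mov10l1 and Tdrd5. Among genes of other cells in the cluster, 6 of 8 Sertoli genes (median 0.65) and 3 of 5 Leydig genes (median 0.98) had a higher estimate and none was called. The Sertoli list summed to 522, 669, 1147 and 642 CPM and the Leydig list to 177, 111, 212 and 209 CPM, and their part in the other differences was not tested. Late spermatid genes, which are also abundant in the free RNA, had a higher estimate for 10 of 13 (median 0.43), with Prm1 and Tnp2 called. Of the p53 and apoptosis genes 7 of 16 had a higher estimate (median -0.17) and 2 were called: Bcl2 fell, and Trp63, with no UMI in either WT library, read 46.5 and 27.1 CPM in the Dhx37-/- libraries. Trp63 passed the filter on counts only through the Dhx37-/- libraries, so its call has no measured WT level behind it.

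Among the genes with the smallest p outside the lists, Stox1 read 9.08, 0, 171 and 249 CPM in the cluster. It passed the filter on counts there only through the Dhx37-/- libraries. Elavl2, an RNA binding protein, read 459, 641, 157 and 178 CPM (log2 fold change -1.67), and Tet3, an enzyme that oxidises methylated DNA, 345, 288, 91.8 and 114 CPM (log2 fold change -1.64). None of these 3 genes overlapped between genotypes, as was so for 5311 of the 9714 genes tested in the cluster (54.7%). In barcodes of the cluster that did not pass the gate, Elavl2 read 324, 370, 77.0 and 115 CPM and Tet3 276, 223, 63.5 and 91.6 CPM. These barcodes come from the same 4 libraries and are no further replicates.

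Leaving out 1 library moved the number of calls. Such a fit has 1 library in a group, assumed to vary like the 2 of the other, and tested 7561 to 13122 genes. Without Dhx37-/- replicate 1 the cluster gave 241 calls and without Dhx37-/- replicate 2 it gave 188, against 622 without WT replicate 1 and 1066 without WT replicate 2. Of the 27 called list members 8, 8, 17 and 25 stayed called in these fits, in the same order, with the same sign in every fit that tested them. Zfp541 and 1700102P08Rik kept their call in each, though 1700102P08Rik had few WT UMIs. Stra8, Piwil1, Piwil2, Spo11, Mcmdc2 and Cntd1 lost it only without Dhx37-/- replicate 2, and Dmrt1, Ldhc, Hspa2, Prm1 and Tnp2 only without Dhx37-/- replicate 1. Rec8, Tcfl5, Mov10l1 and the sex chromosome silencing gene Scml2 lost it when either Dhx37-/- library was left out. Meiosin, Atm, Lin28a, Dmrtb1, Kctd19 and Bcl2 did so and also lost it without WT replicate 1, Sycp3 lost it without WT replicate 1 or Dhx37-/- replicate 1, and Hells and Tdrd5 lost it in all 4 fits. Trp63 lost it without WT replicate 1 or Dhx37-/- replicate 2 and was not tested without Dhx37-/- replicate 1. DESeq2 called 13 of the 27 in the same cluster, with the same sign for all 27. All of these fits reuse the UMIs that chose the 27, so like signs are no separate support.

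**Figure D5:**
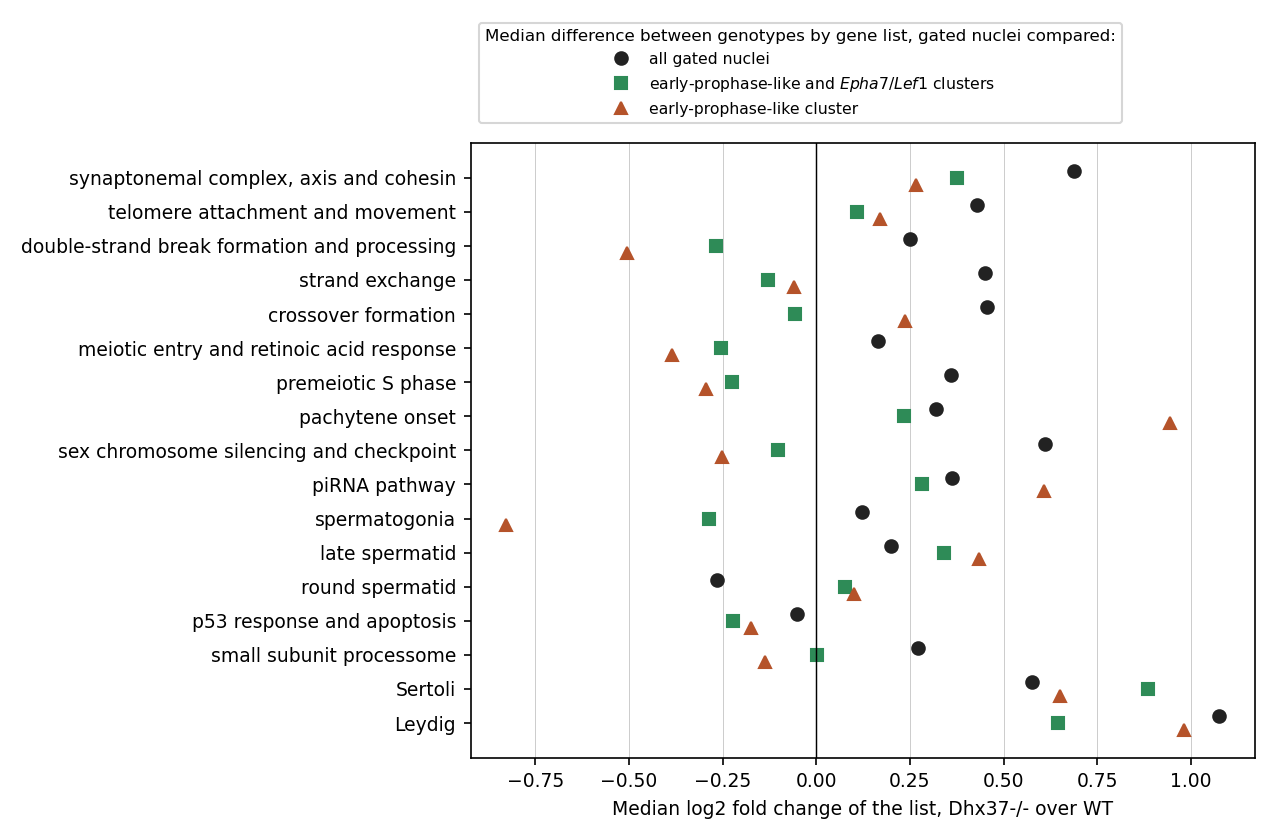
Median log2 fold change, Dhx37-/- over WT, of each gene list among all gated nuclei, those in the early-prophase-like and Epha7 and Lef1 clusters, and those in the early-prophase-like cluster alone. Spermatogonial, break and entry lists lie below 0 in the cluster (-0.83, -0.51 and -0.39) and above 0 over all gated nuclei (0.12, 0.25 and 0.17), while pachytene onset lies above 0 in all (0.94, 0.23 and 0.32).

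The X chromosome, silenced at pachytene, gave 1.38, 1.17, 1.28 and 1.33% of the UMIs of the gated nuclei. The mean was 1.31% ± 0.0379 (SD, n = 2) in Dhx37-/- and 1.28% ± 0.153 (SD, n = 2) in WT, a difference of 0.0290 percentage points that lay within the spread between the WT libraries (exact two-sided permutation p = 1). Nuclei that passed the gate after thinning to 1000 UMIs gave 1.89, 1.44, 2.10 and 1.93%, with all their UMIs counted. This was a difference of 0.345 without overlap (exact two-sided permutation p = 0.333, the smallest possible). Inside the early-prophase-like cluster the share was higher in every library, at 2.32, 2.57, 1.65 and 1.51%, and here both Dhx37-/- libraries lay below both WT libraries. Barcodes of the cluster that were not gated gave 2.06, 2.18, 0.972 and 0.946%, and gated nuclei elsewhere 1.09, 0.943, 1.09 and 1.03%.

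The gated nuclei were set against barcodes outside the gate with at least 1 UMI in 3 or more genes of the spermatogonial list. Markers of these barcodes go against calling them spermatogonia: the spermatogonial list summed to 863, 813, 781 and 804 CPM in them, the Sertoli list to 2101, 616, 2576 and 3288 CPM and the Leydig list to 1482, 396, 2985 and 2627 CPM. There were 254, 207, 435 and 573 such barcodes, and 0.831, 0.797, 0.982 and 1.18 gated nuclei for each. The mean ratio was 1.08 ± 0.144 (SD, n = 2) in Dhx37-/- and 0.814 ± 0.0238 (SD, n = 2) in WT, 1.33-fold higher without overlap (exact two-sided permutation p = 0.333, the smallest possible). At 1000 UMIs per barcode the genotypes overlapped, with ratios of 2.38, 1.09, 1.95 and 3.31 over 13, 11, 22 and 29 barcodes (exact two-sided permutation p = 0.667). Without barcodes of a somatic list the denominators fell to 181, 173, 202 and 305, and the ratios were 0.994, 0.890, 1.17 and 1.45. The spermatogonial gate held 2.61, 2.57, 5.11 and 5.82% of the barcodes, also without overlap, and its median depth of 4548.5, 4552, 5666 and 5689 UMIs was higher in Dhx37-/- as well.

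Whether the genotype difference was particular to the gated nuclei was asked by the interaction of genotype and gate over 8 sums, gated and other nuclei of each library. Of 28885 genes, 69 passed (0.239%). The number was 0 (607 at an unadjusted p under 0.05) in a fit with the replicate number in place of the library term. That fit no longer pairs the gated and other sums of a library. The number also changed when any 1 library was left out. Of the 69, 46 had a more positive difference in the gated nuclei (0.159%) and 23 a more negative one (0.0796%). This balance turned with library totals alone, where 23 of 58 were more positive and 35 more negative, and against the barcodes of the spermatogonial gate described above, with 21 and 37 of 58. A830018L16Rik read 29.7, 28.2, 70.7 and 103 CPM in gated nuclei and 39.4, 42.1, 25.0 and 29.3 CPM in the others, an interaction of 2.28 ± 0.33 on the log2 scale (edgeR adjusted p = 2.28e-07). Hpse2, a heparanase homolog, read 199, 210, 282 and 554 CPM against 138, 199, 123 and 141 CPM (interaction 1.42, edgeR adjusted p = 7.76e-05). Gm10505 was among the 69, with an interaction of 2.12 (edgeR adjusted p = 7.76e-05). The gated nuclei lay in the early-prophase-like cluster to different extents in the 4 libraries, as given above, and the part of that mixture in these interactions was tested only inside the cluster. There, gated against other barcodes gave 22 of 10230 genes (0.215%), 7 more positive (0.0684%) and 15 more negative (0.147%). A830018L16Rik, Hpse2 and Gm10505 turned negative, at -0.48, -0.58 and -2.10, with none of these passing the test. WT UMIs of A830018L16Rik in the cluster were few, 6 and 1 in gated and 4 and 1 in other barcodes. Those of Gm10505 were 6 and 1 against 3 and 0. Tanc2, a scaffold protein gene with an interaction of 1.36 over all nuclei, stayed positive there at 0.76 (edgeR adjusted p = 0.154). Fhl2, with an interaction of -2.49 over all nuclei, was not tested there.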

How the data were processed

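Nuclei of whole testes were profiled by 10x 3′ v3 sequencing. The authors deposited unfiltered UMI counts per gene and barcode, 1 matrix per library, made with Cell Ranger (version 7.2.0 in the file headers). The study's methods name mm39 and the submitters' processing notes GRCm38, so no coordinates are given, and chromosomes come from GENCODE M21 (52081 of 55357 features matched). The members and gene lists were chosen with earlier results of these data known. Barcodes were gated as described, and clustered in scanpy 1.11.5 (2000 variable genes without the gate genes, 10 components, 20 neighbours, resolution 0.5). The study tested across nuclei. Here UMIs were summed per library and tested with edgeR 4.0.16 (TMM, filterByExpr, glmQLFTest, Benjamini-Hochberg adjusted p under 0.05) in R 4.3.3, with DESeq2 1.42.0 as an alternative, and the procedure was tested on simulated data. P-values measure the spread between the 2 libraries of each group, which the labels call biological replicates. Shares were tested by exact permutation in scipy 1.17.1. Floors are 3 counts. Named genes were the gate genes, Dhx37, called genes (at most 10 a direction, or the 5 of smallest p where fewer than 3 passed), the 4 highest members of each list and every called member. Genes outside that rule, such as Hfm1 or Insl3, were chosen after their values were seen.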

Additional observations from a re-analysis of the deposited data

Results flagged for a closer look

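The genotype difference differed between gated and other nuclei for 69 genes by edgeR's interaction test. The largest by p were A830018L16Rik (2.28 on the log2 scale), Fhl2 (-2.49), Hpse2 (1.42), Gm10505 (2.12) and Tanc2 (1.36). The count was 0 with the replicate number in place of the library term. Inside the early-prophase-like cluster the interactions of A830018L16Rik, Hpse2 and Gm10505 turned negative without passing the test, as given above. Barcodes with over 5000 detected genes, which the limits leave out of every comparison, also held the gate: 4 of 13 in WT replicate 1, 3 of 15 in WT replicate 2, 64 of 204 in Dhx37-/- replicate 1 and 112 of 302 in Dhx37-/- replicate 2.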

How the results depend on the processing

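The 4 genes called over all gated nuclei became 0 with at least 4 gate genes (edgeR, 1243 at an unadjusted p under 0.05) or without Ugt8a in the gate (2935). They became 1 without doublet calls, 2 with library totals alone, 62 with no upper limit on genes and 311 with no filter on low counts. With the gate applied at 1000 UMIs and the passing nuclei summed at full depth they became 230 (13 higher, 217 lower). DESeq2 called 104, and the early-prophase-like cluster gave 802. With DESeq2 size factors 2 were higher and 3 lower. Leaving out each library gave 8 (without Dhx37-/- replicate 2) to 616 (without WT replicate 1), with 169 without Dhx37-/- replicate 1 and 511 without WT replicate 2, fewer samples and other gene filters included. Same-numbered libraries did not deviate together (correlation -0.30 over genes), so the replicate block, which gave 58 calls, shares only a number; with crossed numbers it gave 1732. The interaction count of 69 became 0 with the replicate block (607 at an unadjusted p under 0.05), 22 in the cluster and 9 to 150 without 1 library. The 802 became 3 with the joined clusters, 239 with DESeq2 (13 of the 27 called list members), 639 with the replicate block and 188 to 1066 without 1 library. The difference in X share turned to -0.127 with at least 4 gate genes, -0.122 with no upper limit on genes, -0.0263 without doublet calls, -0.865 in the cluster, -0.330 in the joined clusters, -0.0286 without barcodes of a somatic list and -0.0790 without WT replicate 2 (range to 0.137). It was 0.345 with the gate applied at 1000 UMIs and all UMIs of the passing nuclei counted. The interactions of A830018L16Rik, Hpse2 and Gm10505 became -0.48, -0.58 and -2.10 in the cluster, with few WT UMIs of A830018L16Rik and Gm10505 there. The share fold ran from 2.38 to 3.27 and the ratio fold to the spermatogonial gate from 1.21 to 1.46 without 1 library. With at least 4 gate genes they were 4.87 and 2.20. The share fold was 5.93 in the cluster and 4.39 in the joined clusters. There the ratio was taken to barcodes of the same clusters that were not gated, which is another quantity, and its fold was 2.06 and 2.02. The cause of these changes was not tested. With 2 libraries a group, no exact test here can pass 0.05.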
